A study of Mus musculus with 15 samples.

Results

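The subject is a set of 9 genes that mark the distal nephron and collecting duct of the kidney, measured in cultured mouse cells with and without Diet1. They are the 3 subunit genes of the epithelial sodium channel (Scnn1a, Scnn1b and Scnn1g), the claudin gene Cldn8, the steroid enzyme gene Hsd11b2, the water channel genes Aqp2 and Aqp3, the calcium pump gene Atp2c2 and the transcription factor gene Gata3. The 9 were picked by symbol from the 24421 genes of the count table, with their differences between KO and WT cells already known, so those differences are given here as a description and without a test. Other genes of the same pathways were taken from lists written with earlier results of these data known, and these were tested.

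RNA was sequenced from 15 libraries of primary proximal tubule cells of C57BL/6 mice, passaged once in culture. The groups were female Diet1 KO (n = 4 libraries), female WT (n = 4), male Diet1 KO (n = 3) and male WT (n = 4). Per the labels, each group's cells came from 3 to 4 mice, were pooled and were then split 4 ways as technical replicates. A group is therefore a single pool, and p-values measure only the technical spread within pools. Diet1, now named Malrd1, encodes a protein made in the small intestine and kidney that is known as a regulator of bile acid synthesis. Its own transcript was not analysed here, and the loss of Diet1 in KO cells was thus not checked.

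The late distal tubule and collecting duct make the final adjustment of sodium, potassium and water in the urine. Their principal cells take up sodium through the epithelial sodium channel (ENaC), which is built from an alpha, a beta and a gamma subunit and is raised by the steroid hormone aldosterone through the mineralocorticoid receptor. Hsd11b2 breaks down glucocorticoids that would otherwise occupy that receptor, Aqp2 and Aqp3 carry water across the apical and basolateral membranes under vasopressin, and Cldn8 seals the junctions between the cells against back leak.

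Library totals ran from 17648416 to 30896637 counts, at which 3 counts, taken as the floor of detection, correspond to 0.0971 to 0.170 CPM (counts scaled to a library of 1000000). All CPM values of genes below are also scaled by TMM, a correction for library composition, and a value after ± is the SD over libraries for a level and the standard error for a log2 fold change. Of the 24421 genes, 13912 had enough counts to be tested. The labelled cell type was checked against its markers. Of 18 proximal tubule markers, 9 could be tested, and the sum of the 18 was 75.3 to 78.8 CPM in female KO libraries and 106 to 122 CPM in female WT libraries, against 79.97 to 81.9 CPM in male KO libraries and 91.6 to 97.1 CPM in male WT libraries. The sum was led by the brush border enzyme gene Ggt1. By edgeR's quasi-likelihood test with Benjamini-Hochberg adjustment, 1 of the 9 was called higher and 2 lower in KO than in WT cells of each sex. Of all tested genes, 20.7% were called higher and 18.6% lower in female cells, and 10.1% in each direction in male cells. The part of these markers in the results below was not tested. The phosphate transporter gene Slc34a1 had 0 counts in both KO groups, 3 in the 4 female WT libraries and 1 in the 4 male WT libraries. Several defining proximal tubule markers were thus at or near 0 in these cultures. A sum over a mixture of cells cannot tell apart fewer cells of a type and less RNA per cell, which holds for every gene below.

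The 3 ENaC subunit genes were all lower in female KO than in female WT cells, by 2.18-fold to 3.35-fold, and no KO library of any of the 3 reached its lowest WT library. In male cells the differences between KO and WT were smaller, and only the beta subunit gene separated KO from WT libraries. Scnn1g and Scnn1b are neighbours on mouse chromosome 7 of build GRCm38, on the plus strand at 121734479 to 121768475 and at 121865038 to 121918514, and 96.6 kb and 1 unresolved annotated transcript, Gm44740, lie between them. Scnn1a lies on chromosome 6, plus strand, at 125320659 to 125344943. The promoter windows of the neighbours are shown because both genes were lower in female KO cells, while only Scnn1b separated KO from WT libraries in male cells. Each is the 250 bases before the gene's start in RefSeq on build GRCm38.p6, plus strand, chr7:121734229-121734478 for Scnn1g and chr7:121864788-121865037 for Scnn1b.
Scnn1g: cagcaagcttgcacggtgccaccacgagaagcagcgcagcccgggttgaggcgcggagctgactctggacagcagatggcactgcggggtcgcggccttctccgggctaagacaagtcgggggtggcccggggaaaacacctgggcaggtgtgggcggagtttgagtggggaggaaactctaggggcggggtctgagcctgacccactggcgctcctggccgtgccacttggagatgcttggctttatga
Scnn1b: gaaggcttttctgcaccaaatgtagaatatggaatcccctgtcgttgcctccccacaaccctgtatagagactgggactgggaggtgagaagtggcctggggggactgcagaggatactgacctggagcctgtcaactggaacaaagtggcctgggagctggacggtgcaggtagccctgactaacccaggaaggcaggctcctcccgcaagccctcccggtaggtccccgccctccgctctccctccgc
Both strands of each window were searched for 4 short motifs, which are GATAA (the core read by GATA factors), AGAACA (an arm of the steroid receptor element), GCCNNNGGC (AP-2) and TATAAA (the TATA box). Neither window held any of them, so no letters are in capitals. Among 32851 RefSeq windows of the same length, GATAA occurred in 22.6%, AGAACA in 16.1%, GCCNNNGGC in 13.7% and TATAAA in 12.4%. Of the 9 genes, 5 had a RefSeq window.

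Scnn1a, the pore-forming alpha subunit, was the most abundant of the 3. Its level was 18.8, 18.6, 20.8 and 23.7 CPM in female KO libraries, against 48.8, 47.9, 40.9 and 41.9 CPM in female WT libraries. The male KO libraries had 30.0, 25.0 and 25.3 CPM, and the male WT libraries 31.5, 36.9, 33.8 and 28.7 CPM. The female groups lay far apart, whereas the highest male KO library stood above the lowest male WT library. The log2 fold change of KO over WT was -1.12 ± 0.093 in female cells and -0.29 ± 0.10 in male cells, where it ran from -0.375 without male KO replicate 1 to -0.23 without male WT replicate 2.

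Scnn1b, the beta subunit needed for the channel to reach the membrane in number, was at 1.14, 1.1985, 2.26 and 1.53 CPM in female KO libraries, against 5.83, 5.37, 5.86 and 4.05 CPM in female WT libraries. The male KO libraries had 2.82, 2.5998 and 2.59 CPM, against 3.53, 3.78, 3.35 and 3.58 CPM in male WT libraries. The groups did not overlap in either sex, and the male KO libraries lay between the female KO and the male WT libraries. The log2 fold change was -1.74 ± 0.17 in female and -0.41 ± 0.17 in male cells. These levels rest on 20 to 49 counts per library in female KO and 101 to 120 in female WT. Scnn1b overlaps Cog7 on the opposite strand, and reads of the 2 genes cannot be told apart unless the counting used strand, which the sources used here do not state.

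Scnn1g, the gamma subunit, was at 1.66, 0.999, 1.76 and 1.85 CPM in female KO libraries, against 3.95, 4.74, 4.05 and 4.05 CPM in female WT libraries. In male KO libraries it was at 2.22, 1.92 and 2.96 CPM, against 2.95, 2.61, 1.57 and 1.87 CPM in male WT libraries. The female groups were apart and the male groups were fully mixed. The log2 fold change was -1.41 ± 0.19 in female cells. In male cells it was 0.06 ± 0.21, and it changed sign to -0.14 without male KO replicate 3 and went to 0.27 without male WT replicate 1.

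The mean proportions of the subunits varied between the groups. Divided by the length of their exons, Scnn1a stood at 4.96 ± 0.570 CPM per kb in female KO and 10.9 ± 0.976 in female WT cells, and Scnn1b at 0.582 ± 0.196 and 2.004 ± 0.323 CPM per kb in the same order of groups. The ratio of the alpha to the beta subunit transcript, per length, was 9.03 ± 2.13 in female KO and 5.51 ± 0.888 in female WT cells, against 6.37 ± 0.362 in male KO and 5.86 ± 0.590 in male WT cells. The female libraries overlapped in this ratio. Female KO replicate 3 (Scnn1a 5.04 and Scnn1b 0.860 CPM per kb) had a lower ratio than female WT replicate 4 (10.1 and 1.54). The ratio of alpha to gamma was 9.89 ± 2.42 in female KO and 7.76 ± 0.781 in female WT cells, against 8.44 ± 1.97 in male KO and 11.2 ± 3.24 in male WT cells, with SDs that overlap within each sex. Each ratio shares its numerator with the levels above and was not tested.

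**Figure D1:**
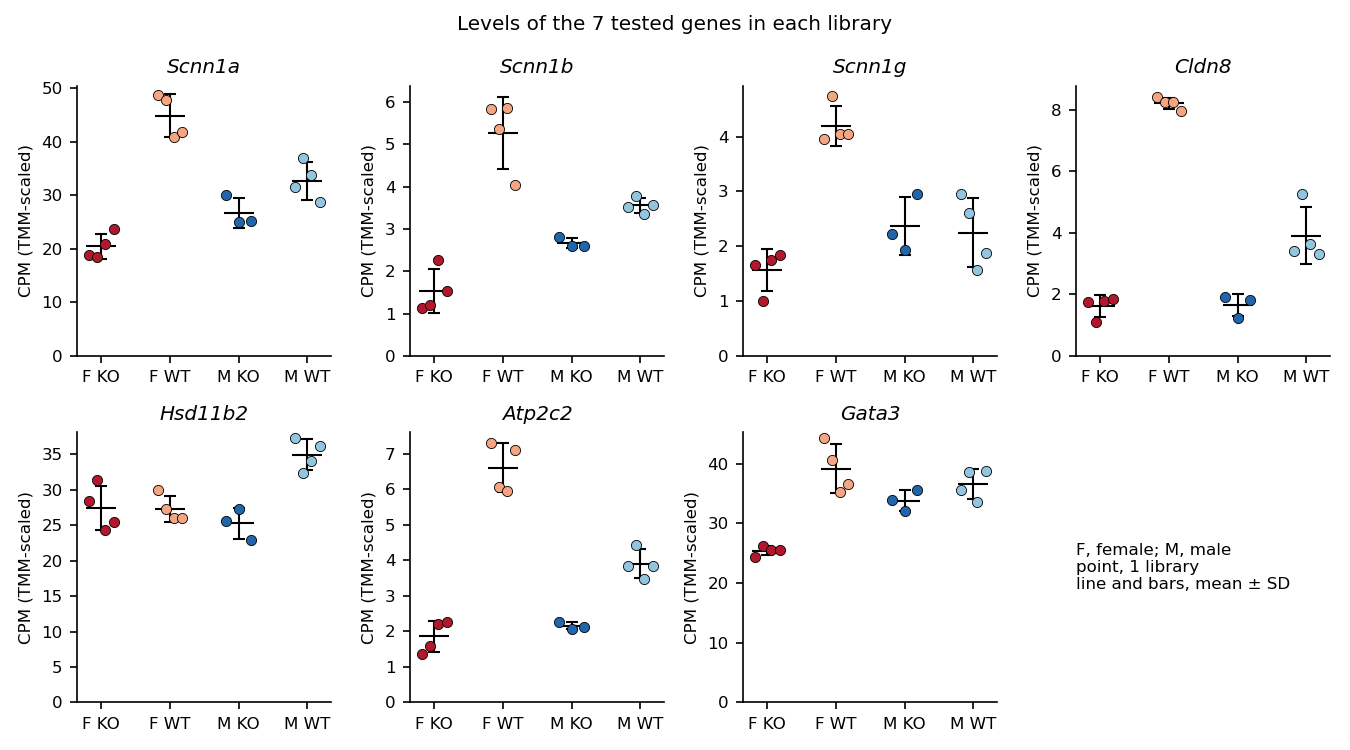
TMM-scaled CPM (y axis, from 0) of the 7 genes with enough counts, in each library of female KO, female WT, male KO and male WT cells (x axis); each point is 1 library, and lines with bars are means with SDs. The female WT mean is the highest of the 4 for every gene but Hsd11b2, and Cldn8 shows the largest gap as a fold, with 1.10 to 1.85 CPM in female KO and 7.97 to 8.42 CPM in female WT.

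Cldn8, the tight junction protein that goes with the paracellular barrier of the collecting duct, had the largest difference of the 7 measurable genes in both sexes. Its level was 1.77, 1.10, 1.80 and 1.85 CPM in female KO libraries, against 8.42, 8.25, 8.25 and 7.97 CPM in female WT libraries. In male KO libraries it was at 1.93, 1.25 and 1.80 CPM, against 3.399, 5.28, 3.63 and 3.31 CPM in male WT libraries. The KO libraries of both sexes covered the same low range, and the female WT libraries stood above the male WT libraries without overlap. The mean in KO was 5.02-fold lower than in WT in female cells (log2 fold change -2.33 ± 0.15) and 2.30-fold lower in male cells (-1.20 ± 0.18). The counts behind these levels were 22 to 41 per library in female KO, 155 to 201 in female WT, 24 to 39 in male KO and 62 to 105 in male WT. Cldn8 lies on chromosome 16, minus strand, at 88560828 to 88563183, with no other annotated gene over it. The nearest claudin gene, Cldn17, is 53.8 kb away and had 0 counts in all 15 libraries.

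Hsd11b2, which turns active glucocorticoid into its inactive form and so keeps the mineralocorticoid receptor free for aldosterone, was the exception among the 7 measurable genes. Female KO libraries had 28.4, 31.4, 24.3 and 25.5 CPM, against 29.9, 27.3, 26.0 and 26.0 CPM in female WT libraries. Male KO libraries had 25.6, 27.2 and 22.9 CPM, against 37.4, 32.3, 34.0 and 36.1 CPM in male WT libraries. The 2 female groups overlapped throughout, and the male WT libraries stood above all others. The log2 fold change was 0.00 ± 0.072 in female cells, where leaving out a library moved it between -0.071 and 0.054, and -0.48 ± 0.076 in male cells. Per length it was the most abundant of the 9 in every group, at 14.9 ± 1.71 CPM per kb in female KO, 14.8 ± 0.995 in female WT, 13.7 ± 1.19 in male KO and 19.0 ± 1.21 in male WT cells. The gene lies on chromosome 8, plus strand, at 105518755 to 105523988.

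The 2 water channel genes were at or near the limit of detection and had too few counts to be tested. Aqp2, the vasopressin-regulated apical channel of principal cells (chromosome 15, plus strand, 99579055 to 99584547), had 0 counts in all female KO, female WT and male KO libraries and 1 count in male WT replicate 2. Aqp3, the basolateral channel (chromosome 4, minus strand, 41092722 to 41098183), had 3 counts over the 4 female KO libraries and 2 over the 4 female WT libraries, against 5 over the 3 male KO libraries and 1 over the 4 male WT libraries. No library had more than 3 counts of either gene, so no fold change is given. The Aqp2 promoter is shown as that of the defining principal cell gene that was undetected beside a measurable Scnn1a, Hsd11b2 and Gata3. It is the RefSeq window of 250 bases on build GRCm38.p6, chr15:99578806-99579055, plus strand, with motif letters in capitals.
Aqp2: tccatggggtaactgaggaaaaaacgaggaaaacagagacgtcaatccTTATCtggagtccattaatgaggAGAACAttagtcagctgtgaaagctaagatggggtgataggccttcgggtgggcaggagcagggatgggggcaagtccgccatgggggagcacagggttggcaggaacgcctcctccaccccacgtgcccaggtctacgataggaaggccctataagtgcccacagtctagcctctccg
The window held a GATAA on the minus strand, printed as TTATC, 202 bases before the start, and an AGAACA on the plus strand at 179 bases, with no overlap between them. Aqp3 had only a TATAAA at 29 bases, and Gata3 only GCCNNNGGC, at 246, 231 and 221 bases before the start.

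Atp2c2, a calcium and manganese pump of the secretory pathway with a narrow range of tissues, had the same order of group means as Cldn8 and Scnn1b. It had 1.37, 1.60, 2.22 and 2.25 CPM in female KO libraries, against 7.30, 6.07, 5.96 and 7.10 CPM in female WT libraries. It had 2.27, 2.08 and 2.13 CPM in male KO libraries, against 3.85, 4.44, 3.47 and 3.84 CPM in male WT libraries. KO and WT libraries did not overlap in either sex, and the KO libraries of the 2 sexes did. The log2 fold change was -1.81 ± 0.14 in female cells and -0.84 ± 0.16 in male cells. The gene lies on chromosome 8, plus strand, at 119700009 to 119757717, and overlaps Gm45747 on the same strand, so some reads could belong to either.

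Gata3, a transcription factor needed for the growth of the ureteric bud and kept on in principal cells, had the smallest female difference among the 6 genes whose female groups did not overlap. Female KO libraries had 24.4, 26.3, 25.5 and 25.5 CPM, against 44.2, 40.6, 35.2 and 36.5 CPM in female WT libraries. Male KO libraries had 33.9, 32.0 and 35.5 CPM, against 35.5, 38.5, 33.5 and 38.8 CPM in male WT libraries. The female KO libraries stood apart from the other 11, and the male groups overlapped. The log2 fold change was -0.62 ± 0.062 in female cells. In male cells it was -0.11 ± 0.065, and -0.066 without male KO replicate 2. Gata3 lies on chromosome 2, minus strand, at 9857078 to 9890034, and overlaps 9230102O04Rik on the same strand and Gm13256 and 4930412O13Rik on the other.

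Seen as a set, the 7 measurable genes had a median log2 fold change of -1.41 in female and -0.41 in male cells, where the median of all tested genes was 0.00 in both. In 6 of the 7 the female KO libraries lay wholly below the WT libraries, where 16.7% of all genes lay wholly below and 19.4% wholly above. In 4 of the 7 the male KO libraries lay wholly below, where 13.7% of all genes lay wholly below and 13.9% wholly above. The genes were chosen on these contrasts, so nothing is read from these counts. The female effect minus the male effect was -1.13 ± 0.26 for Cldn8, -0.83 ± 0.14 for Scnn1a, -1.34 ± 0.24 for Scnn1b and -1.48 ± 0.28 for Scnn1g. It was -0.97 ± 0.22 for Atp2c2, -0.51 ± 0.090 for Gata3 and, with the opposite sign, 0.48 ± 0.10 for Hsd11b2. These differences too are a description.

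**Figure D2:**
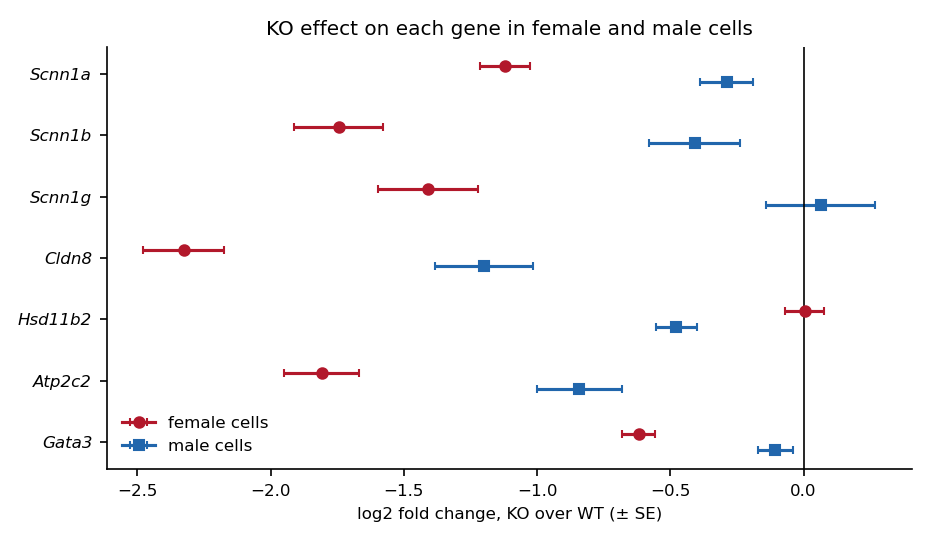
Log2 fold change of KO over WT (x axis, ± SE) for the 7 measurable genes (y axis) in female cells (circles) and male cells (squares). The female values lie left of the male values for every gene but Hsd11b2, which is at 0.00 in female and -0.48 in male cells.

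The 4 groups kept a common order for several of the genes. Cldn8, Scnn1b and Atp2c2 ran downward through female WT, male WT, male KO and female KO. Of these, only Scnn1b had no overlap between any neighbours, since the male KO and female KO libraries overlapped for Cldn8 and Atp2c2. Scnn1a and Gata3 had the same order, with overlap between male WT and male KO for both and between female WT and male WT for Gata3. For Scnn1g the male KO mean stood just above the male WT mean, and the 3 lower groups overlapped with their neighbours. Hsd11b2 alone was highest in male WT, and its 3 lower groups overlapped.

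Genes that followed the same course over the 4 groups were looked for among 12038 other genes averaging 1 CPM or more. Those with only a clone or predicted name were left out. The measure was the root mean square (RMS) difference of the group means of log2 CPM, each centred on its gene's mean. A prior count of 2 was added before taking log2, which shrinks the differences of genes with few counts. For Cldn8 the nearest were Kcng1 (RMS 0.17), Chrdl1 (0.18), St8sia4 (0.21), Sftpd (0.23) and Dcx (0.28). Kcng1, a potassium channel subunit, averaged 0.438 CPM in female KO and 3.31 CPM in female WT cells, against 0.454 CPM in male KO and 1.32 CPM in male WT cells. St8sia4, a polysialic acid transferase, averaged 1.66 CPM in female KO and 5.70 CPM in female WT cells. On this scale Atp2c2 lay at 0.26 from Cldn8, about as near as Sftpd and Dcx.

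For Scnn1b the nearest were Erbb4 (RMS 0.076), Veph1 (0.11), Map2 (0.11), Kl (0.15) and Slc34a2 (0.17). Erbb4, a receptor of the epidermal growth factor family, averaged 2.01 CPM in female KO and 6.19 CPM in female WT cells, against 2.99 CPM in male KO and 4.30 CPM in male WT cells. Kl, which encodes Klotho, a coreceptor of the hormone FGF23 in the distal tubule, averaged 2.08 CPM in female KO and 8.13 CPM in female WT cells, against 3.18 CPM in male KO and 5.27 CPM in male WT cells. Within the set, Scnn1a (0.24), Atp2c2 (0.25) and Scnn1g (0.26) were nearest to Scnn1b. The 5 named genes were picked as the nearest of 12038, so nothing is read from their lying nearer than the partner subunits. A likeness over 4 groups is a description of these pools.

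The listed regulators of ENaC and the aldosterone pathway were called in both directions in both sexes. Of 29 tested genes on that list (the 3 subunits and Hsd11b2 left out), edgeR's quasi-likelihood test with Benjamini-Hochberg adjustment called 6 higher and 8 lower in female KO than in female WT cells, beside 20.7% higher and 18.6% lower of all genes, or 39.3% in all. The list's median log2 fold change was 0.01. When scaled by library size alone, the female split was 4 higher and 11 lower, and without female WT replicate 2 there were 5 lower. In male cells 6 were higher and 3 lower, beside 10.1% of all genes in each direction, or 20.2% in all, with a list median of 0.00. The male count of higher genes was 2 under DESeq2, 1 in a fit of the male groups alone, 2 without male WT replicate 1, 3 each without male WT replicate 3 or 4 or male KO replicate 2, and 1 without male KO replicate 3.

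Kcnj16, a subunit of the basolateral potassium channel of distal tubule cells, fell in both sexes. It averaged 25.2 ± 2.38 CPM in female KO and 44.6 ± 3.64 CPM in female WT cells (log2 fold change -0.81 ± 0.075, edgeR adjusted p = 2.14e-08), and 34.5 ± 2.50 CPM in male KO and 44.5 ± 3.93 CPM in male WT cells (-0.36 ± 0.078, edgeR adjusted p = 0.00204). Sgk1, the aldosterone-induced kinase that keeps ENaC at the membrane, changed in opposite directions. It averaged 104.8 ± 3.91 CPM in female KO and 82.5 ± 2.12 CPM in female WT cells (0.34 ± 0.038, edgeR adjusted p = 3.78e-09), against 96.9 ± 0.525 CPM in male KO and 123.5 ± 7.48 CPM in male WT cells (-0.35 ± 0.040, edgeR adjusted p = 2.55e-08). The female effect exceeded the male effect by 0.69 ± 0.055 (edgeR adjusted p = 4.15e-11). The other female increases named by size were Kcnma1, the pore of the large-conductance potassium channel (0.77 ± 0.17), and Fxyd5, a regulator of the sodium pump (0.61 ± 0.080).

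Among proteases that cut and activate ENaC, St14 (matriptase) rose in both sexes. It averaged 451 ± 1.94 CPM in female KO and 429 ± 12.9 CPM in female WT cells (log2 fold change 0.073 ± 0.026, edgeR adjusted p = 0.0241), against 464 ± 6.28 CPM in male KO and 401 ± 11.8 CPM in male WT cells (0.21 ± 0.028, edgeR adjusted p = 5.93e-07). Prss8 (prostasin) averaged 30.2 ± 1.13 CPM in female KO and 37.5 ± 1.40 CPM in female WT cells, against 33.7 ± 1.27 CPM in male KO and 30.0 ± 2.81 CPM in male WT cells, and the effects differed between the sexes by -0.48 ± 0.081 (edgeR adjusted p = 4.44e-05). The male Prss8 call did not hold without male WT replicate 3 or male KO replicate 2 or 3, where the edgeR adjusted p was 0.0748 to 0.215, nor under DESeq2 (0.057), a filter of 5 CPM in 3 libraries (0.0517) or a fit of the male groups alone (0.0749). Tmprss4 and Klhl3 were called lower in female cells at about 1 CPM, with edgeR adjusted p = 0.0239 and 0.0255. The Tmprss4 call was lost without female WT replicate 2 or 4 or female KO replicate 1 or 2 (edgeR adjusted p up to 0.0926), and that of Klhl3, an adaptor for WNK kinase breakdown, without female WT replicate 1 or 2 or female KO replicate 1, 3 or 4 (up to 0.0969). In male cells Fxyd2, a sodium pump subunit, was called higher (edgeR adjusted p = 0.0435) and H6pd lower (0.0181). The Fxyd2 call was lost in each omission but that of male KO replicate 2 or male WT replicate 2 (up to 0.332), under DESeq2 (0.0706) and in a fit of the male groups alone (0.0775), and the H6pd call without male WT replicate 2 or male KO replicate 2 or 3 (up to 0.0768). Nr3c2, the mineralocorticoid receptor, named after its values were seen, averaged 2.31 ± 0.253 CPM in female KO and 2.64 ± 0.331 CPM in female WT cells, and 2.86 ± 0.556 CPM in male KO and 3.28 ± 0.336 CPM in male WT cells. It was not called in either sex, with log2 fold changes of -0.19 ± 0.16 in both.

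**Figure D3:**
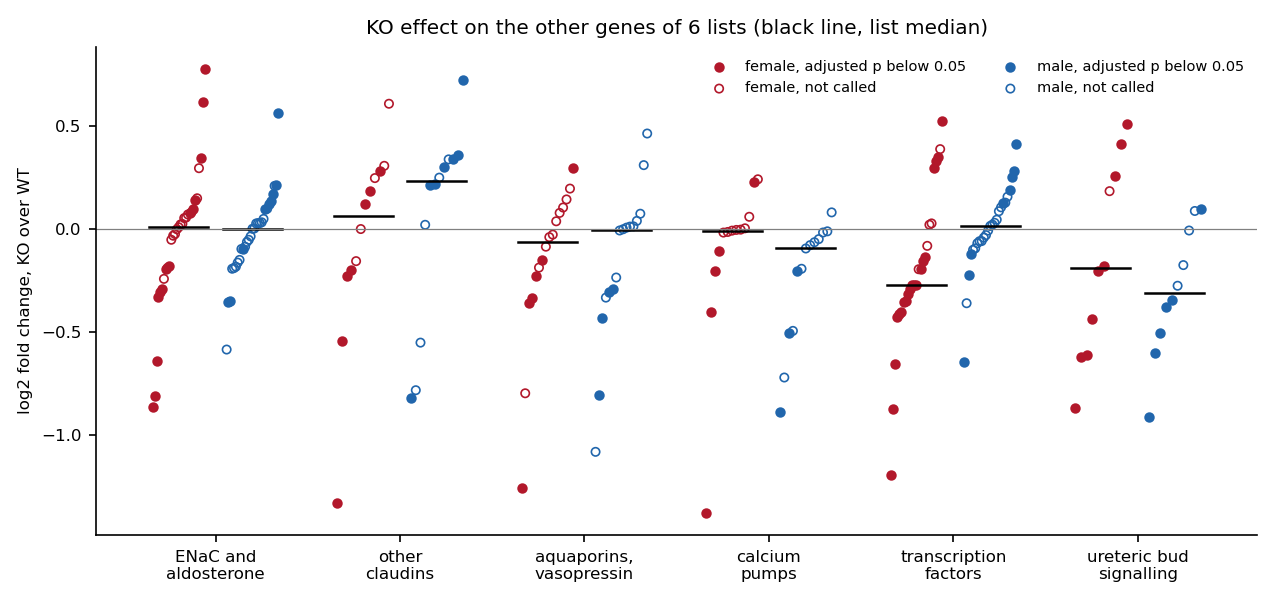
Log2 fold change of KO over WT (y axis) for every tested gene of the 6 pathway lists (x axis) in female (red) and male (blue) cells; filled points passed an edgeR adjusted p of 0.05, and black lines are list medians. The transcription factor list has the lowest female median among the 6, at -0.27, against 0.01 in male cells.

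The other claudins split by level, per length, with Cldn1, Cldn3, Cldn4, Cldn6, Cldn7 and Cldn12 at 35.4 to 679 CPM per kb in female WT cells and the other 6 tested at 0.212 to 2.96, below Cldn8. Of these 12, edgeR called 3 higher and 4 lower in female KO than in female WT cells, beside 20.7% higher and 18.6% lower of all genes. It called 6 higher and 1 lower in male KO than in male WT cells, beside 10.1% of all genes in each direction. The list's median log2 fold change was 0.06 in female and 0.23 in male cells. The female effect lay below the male effect by the test of the difference in 7 of the 12 and above it in 1, beside 5.89% below and 9.76% above of all genes, or 15.6% in all. Cldn4, the partner of Cldn8 in the collecting duct barrier, was the most abundant per length, at 738 ± 8.94 CPM per kb in female KO and 679 ± 6.996 in female WT cells, where Cldn8 had 0.691 ± 0.151 and 3.49 ± 0.0778 in the same order. Cldn4 rose in both sexes, with log2 fold changes of 0.12 ± 0.023 in female cells (edgeR adjusted p = 7.34e-05) and 0.22 ± 0.025 in male cells (edgeR adjusted p = 3.36e-08). Cldn3 and Cldn7, also barrier claudins of the distal nephron, were at 0.18 ± 0.036 and -0.00 ± 0.029 in female cells and rose by 0.34 ± 0.039 and 0.30 ± 0.031 in male cells.

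Cldn2, a cation and water channel of the proximal tubule junction, came nearest to Cldn8 in its female values. It averaged 1.504 ± 0.448 CPM in female KO and 3.82 ± 0.253 CPM in female WT cells (log2 fold change -1.33 ± 0.18, edgeR adjusted p = 1.47e-07), and 1.55 ± 0.127 CPM in male KO and 2.31 ± 0.425 CPM in male WT cells (-0.55 ± 0.21, edgeR adjusted p = 0.0526). Cldn19, of the thick ascending limb, averaged 8.67 ± 0.641 CPM in female KO and 12.6 ± 0.843 CPM in female WT cells (-0.54 ± 0.089, edgeR adjusted p = 7.22e-06), with a male effect of 0.25 ± 0.11 that was not called. Cldn12 fell in female cells (-0.23 ± 0.035) and Cldn1 rose in both sexes (0.28 ± 0.042 in female and 0.36 ± 0.045 in male cells). Cldn15 was called lower in male cells (-0.82 ± 0.24, edgeR adjusted p = 0.0116), but not without male WT replicate 1 or male KO replicate 1 or 3 (0.0566 to 0.102), and the male count of lower claudins was 0 without male KO replicate 1 or 3. Cldn16 was called higher in male cells (0.72 ± 0.21, edgeR adjusted p = 0.0102), but not without male KO replicate 3 (0.0713).

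**Figure D4:**
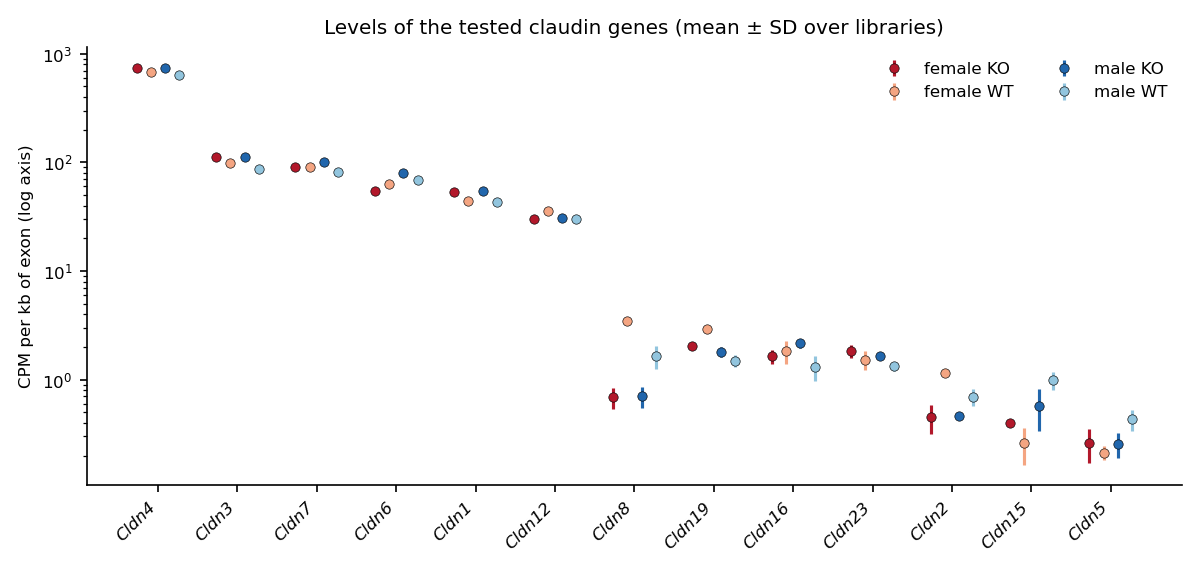
Level of Cldn8 and the 12 other tested claudin genes in CPM per kb of exon (y axis, log scale) as mean ± SD over the libraries of female KO, female WT, male KO and male WT cells. Cldn4 is the highest at 633 to 738 CPM per kb, and Cldn8 lies among the low claudins, with 0.691 in female KO and 3.49 in female WT cells.

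The absence of Aqp2 and Aqp3 was shared by most of the water channel family. Of the other aquaporins, Aqp1, Aqp4, Aqp9 and Aqp11 had enough counts to be tested, and neither edgeR nor DESeq2 called any of them in either sex. At an unadjusted edgeR p below 0.05, 1 passed in female and 0 in male cells. This was Aqp4, a basolateral channel of principal cells (edgeR adjusted p = 0.0727), which averaged 0.379 ± 0.107 CPM in KO and 0.678 ± 0.192 CPM in WT female libraries. Aqp1, the channel of proximal tubule cells, averaged 1.45 ± 0.293 CPM in female KO and 1.29 ± 0.200 CPM in female WT cells, and 1.19 ± 0.350 CPM in male KO and 1.42 ± 0.119 CPM in male WT cells.

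The whole list of aquaporins and vasopressin response, which as written also holds Lgr5, had 16 tested genes. Of these, edgeR called 1 higher and 5 lower, Lgr5 among them, in female KO than in female WT cells, beside 20.7% higher and 18.6% lower of all genes. In male KO against male WT cells it called 0 higher (0 at an unadjusted p below 0.05 and 0 by DESeq2) and 4 lower, beside 10.1% of all genes in each direction. Vamp2, a vesicle protein of Aqp2 delivery, fell in both sexes, by 0.23 ± 0.051 on the log2 scale in female cells (edgeR adjusted p = 0.000399) and by 0.29 ± 0.056 in male cells (edgeR adjusted p = 0.00016). Akap7, an anchor of protein kinase A, fell by 0.34 ± 0.081 in female cells, and Prkar2a, a regulatory subunit of that kinase, rose by 0.29 ± 0.035. Avpr1a, a vasopressin receptor, averaged 1.34 ± 0.523 CPM in female KO and 1.25 ± 0.215 CPM in female WT cells, against 2.05 ± 0.510 CPM in male KO and 3.63 ± 0.620 CPM in male WT cells, where it was called lower (edgeR adjusted p = 0.00283). Lgr5 was called lower in both sexes (edgeR adjusted p = 0.0186 in female and 0.0245 in male cells) and Adcy3, an adenylyl cyclase, in male cells (0.0116). These calls were the less stable ones. The female count of lower genes was 3 without female WT replicate 1 or 3 or female KO replicate 4, which are the omissions that ended the female Lgr5 call (edgeR adjusted p up to 0.0831), and the count of higher genes was 2 without female KO replicate 4. The male count of lower genes was 2 without male KO replicate 2 or 3, where the calls on Adcy3 and Lgr5 were lost (up to 0.134), and that on Lgr5 was also lost without male WT replicate 4 (0.118).

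Calcium pumps and their partners, the family of Atp2c2, included 4 lower and 1 higher of 13 tested genes in female KO cells by edgeR, beside 18.6% lower and 20.7% higher of all genes. In male KO cells 3 were lower and 0 higher, beside 10.1% of all genes in each direction, with 0 higher also at an unadjusted p below 0.05 and by DESeq2. The broadly used relative Atp2c1 did not follow Atp2c2, at 105.7 ± 3.08 CPM in female KO and 107 ± 3.90 CPM in female WT cells and 101 ± 2.57 CPM in male KO and 109 ± 4.33 CPM in male WT cells, and was not called. Atp2b3, a plasma membrane calcium pump, was the nearest in size. It averaged 0.967 ± 0.162 CPM in female KO and 2.55 ± 0.317 CPM in female WT cells (log2 fold change -1.38 ± 0.20, edgeR adjusted p = 5.58e-07), and 1.36 ± 0.196 CPM in male KO and 2.48 ± 0.414 CPM in male WT cells (-0.89 ± 0.20, edgeR adjusted p = 0.000903). Atp2b4, of the same family, fell by 0.40 ± 0.040 in female and by 0.50 ± 0.044 in male cells. Orai2, a store-operated channel subunit, fell by 0.21 in both, with SEs of 0.051 in female and 0.056 in male cells. Atp2a2, the pump of the endoplasmic reticulum, rose in female cells (0.22 ± 0.029). Without male WT replicate 1 the male count of lower genes was 6.

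Transcription factors of the distal nephron and ureteric bud, the class of Gata3, were lower in female KO cells in 16 of 25 tested and higher in 4, beside 18.6% lower and 20.7% higher of all genes. In male cells 3 were lower and 5 higher, beside 10.1% of all genes in each direction. The list's median log2 fold change was -0.27 in female and 0.01 in male cells. The female effect lay below the male effect by the edgeR test of the difference in 14 of the 25 and above it in 3, beside 5.89% and 9.76% of all genes. Leaving out any female library left 14 or 15 lower. In male cells the count of lower factors was 1 without male WT replicate 3 or male KO replicate 2 and 0 without male KO replicate 3, which also left 3 higher, and DESeq2 called 1 lower.

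Lhx1, a homeobox factor needed for nephron formation, averaged 20.1 ± 0.941 CPM in female KO and 36.9 ± 1.87 CPM in female WT cells (log2 fold change -0.87 ± 0.057, edgeR adjusted p = 1.87e-14), and 27.2 ± 2.66 CPM in male KO and 31.9 ± 1.16 CPM in male WT cells (-0.23 ± 0.060, edgeR adjusted p = 0.00562, and 0.107 without male KO replicate 3). Elf5, an ETS factor of principal cells, averaged 0.672 ± 0.175 CPM in female KO and 1.59 ± 0.679 CPM in female WT cells (-1.20 ± 0.34, edgeR adjusted p = 0.00553), and its male effect of -0.36 was not called. Emx1 was called lower in female cells (-0.66 ± 0.27, edgeR adjusted p = 0.0467), but not under DESeq2 (0.0659) or without any 1 of 6 of the 8 female libraries, all but female WT replicate 2 and female KO replicate 1 (0.0503 to 0.248). Its relative Emx2, of the ureteric bud, averaged 50.3 ± 1.23 CPM in female KO and 67.1 ± 2.18 CPM in female WT cells (-0.42 ± 0.038, edgeR adjusted p = 8.50e-11). In male cells Emx2 was called lower by 0.12 (edgeR adjusted p = 0.0343), but not without male WT replicate 3 or 4 or male KO replicate 2 or 3 (0.0566 to 0.215). That call was also lost under DESeq2 (adjusted p = 0.0563), with no filter on low counts (edgeR adjusted p = 0.0533) and in a fit of the male groups alone (0.0582).

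Factors on the other side were Etv4 and Etv5, which act downstream of the receptor Ret in the growing bud, and Tfcp2l1, which sets collecting duct cell fates. Etv4 averaged 54.4 ± 3.61 CPM in female KO and 37.7 ± 2.89 CPM in female WT cells (log2 fold change 0.52 ± 0.052, edgeR adjusted p = 6.71e-10), and 46.6 ± 2.33 CPM in male KO and 39.0 ± 1.499 CPM in male WT cells (0.25 ± 0.056, edgeR adjusted p = 0.0011). Tfcp2l1 rose in both sexes, by 0.35 ± 0.057 in female and 0.41 ± 0.060 in male cells, and Etv5 rose in female cells by 0.33 ± 0.056. Klf5, a collecting duct factor, rose in male cells by 0.28 ± 0.054. Dmrt2, a factor of intercalated cells, was called lower in male cells (-0.65 ± 0.22, edgeR adjusted p = 0.0295), but not under DESeq2 (0.069) or without male WT replicate 2 or 3 or any male KO library (0.0562 to 0.11).

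**Figure D5:**
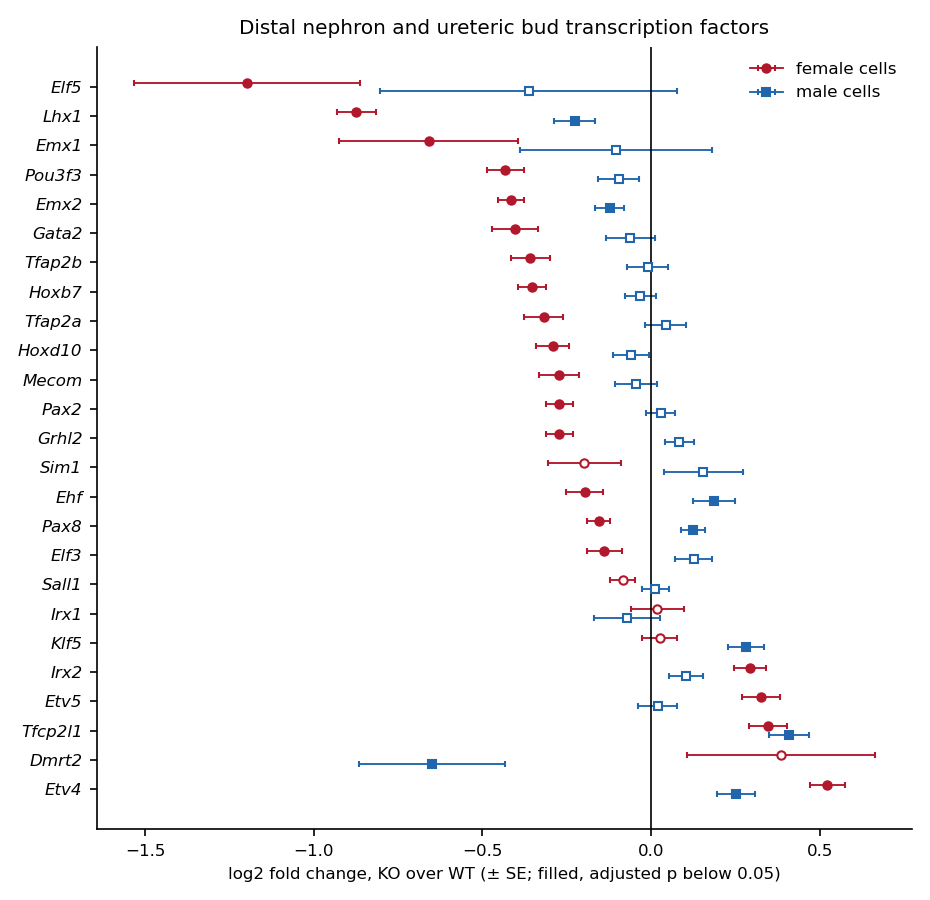
Log2 fold change of KO over WT (x axis, ± SE) for the 25 tested transcription factors of the distal nephron and ureteric bud (y axis, ordered by female value) in female cells (circles) and male cells (squares); filled symbols passed an edgeR adjusted p of 0.05. Filled female circles fill the left side, 16 below 0 and 4 above, while 17 of the 25 male squares are open.

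Signals that shape the ureteric bud, the embryonic source of the collecting duct, were mixed. Of 10 tested, edgeR called 6 lower and 3 higher in female KO cells, beside 18.6% lower and 20.7% higher of all genes. In male KO cells 5 were lower and 1 higher, beside 10.1% of all genes in each direction. The call on the male higher gene, Wnt7b (edgeR adjusted p = 0.0173), was lost without male WT replicate 3 or male KO replicate 1 or 2 (0.0555 to 0.0847). Bmp7, a growth factor that keeps nephron progenitors, averaged 37.6 ± 1.94 CPM in female KO and 69.0 ± 3.89 CPM in female WT cells (log2 fold change -0.87 ± 0.045, edgeR adjusted p = 4.80e-17). Bmp7 was also lower in male cells, at 40.9 ± 1.29 CPM in KO and 51.9 ± 1.58 CPM in WT (-0.35 ± 0.050, edgeR adjusted p = 1.75e-06). Gdnf, the ligand of Ret, fell by 0.62 ± 0.064 on the log2 scale in female cells and by 0.38 ± 0.065 in male cells. Ret itself changed in opposite directions. It averaged 6.26 ± 0.246 CPM in female KO and 4.38 ± 0.632 CPM in female WT cells (0.51 ± 0.11, edgeR adjusted p = 0.000337), against 5.66 ± 0.832 CPM in male KO and 8.60 ± 0.0657 CPM in male WT cells (-0.60 ± 0.11, edgeR adjusted p = 6.21e-05). The difference between the effects was 1.11 ± 0.15 (edgeR adjusted p = 1.63e-06). Wnt11, which is induced by Ret at the bud tip, had the same pair of signs, at 0.41 ± 0.094 in female and -0.51 ± 0.095 in male cells. Spry2, an inhibitor of Ret signalling, rose in female cells (0.26 ± 0.066).

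Markers of the cell types that carry these genes, and of others that the cultures could hold, moved with some of the groups. The 13 principal cell markers, which include Aqp2, Aqp3, Scnn1b, Scnn1g, Hsd11b2 and Gata3, summed to 1654 to 1697 CPM in female KO and 1468 to 1528 CPM in female WT libraries, and to 1858 to 1901 CPM in male KO and 1464 to 1637 CPM in male WT libraries. Without their highest gene, the keratin gene Krt7, they summed to 325 to 345 CPM in female KO and 381 to 412 CPM in female WT libraries, and to 409 to 418 CPM in male KO and 359 to 407 CPM in male WT libraries. The female order thus turned with Krt7 left out. Both sums hold genes of the set, of which Scnn1b, Scnn1g and Gata3 were lower in female KO cells. These sums are therefore no independent measure of principal cells. Those outside the set that could be tested included Krt7, Wfdc2, Apela, Avpr2 and Aqp4. Krt7 rose in both sexes, and averaged 1341 ± 23.9 CPM in female KO and 1099.6 ± 12.9 CPM in female WT cells (log2 fold change 0.29 ± 0.027, edgeR adjusted p = 8.67e-11). The peptide hormone gene Apela averaged 0.263 ± 0.105 CPM in female KO and 1.21 ± 0.289 CPM in female WT cells (-2.23 ± 0.34, edgeR adjusted p = 2.23e-06). Avpr2, the vasopressin receptor of principal cells, averaged 0.214 ± 0.196 CPM in female KO and 0.545 ± 0.158 CPM in female WT cells (-1.26 ± 0.48, edgeR adjusted p = 0.0356). The female KO and WT libraries of Avpr2 overlapped, and the female KO means of both genes were near the floor of up to 0.170 CPM. In male cells neither was called, at -0.70 ± 0.43 for Apela (edgeR adjusted p = 0.276) and -1.08 ± 0.60 for Avpr2 (0.224). Wfdc2 was not called in female cells (-0.08 ± 0.043) and rose in male cells (0.19 ± 0.046). Their part in the differences of the 7 genes was not tested.

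Intercalated cell markers were close to absent, with 1 of 12 testable and a sum without Dmrt2 of at most 1.05 CPM in any library, and the anion exchanger gene Slc4a1 had 0 counts in all 15 libraries. Of 8 markers of the distal convoluted and connecting tubule, Pvalb and Klk1 had 0 counts in all libraries, and the sum, led by the magnesium channel gene Trpm6, was 25.0 to 31.7 CPM in female KO and 41.3 to 44.2 CPM in female WT libraries, against 35.1 to 36.6 CPM in male KO and 38.2 to 43.6 CPM in male WT libraries. The 9 thick ascending limb markers summed to 26.2 to 28.7 CPM in female KO and 30.8 to 32.5 CPM in female WT libraries, against 19.7 to 21.7 CPM in male KO and 17.9 to 21.1 CPM in male WT libraries. Fibroblast and pericyte markers were the most abundant of the other types, at 4285 to 4748 CPM in female KO and 5268 to 5540 CPM in female WT libraries, and 3152 to 3370 CPM in male KO and 5014 to 5364 CPM in male WT libraries. Endothelial markers summed to 37.5 to 48.5 CPM in female KO and 32.8 to 40.2 CPM in female WT libraries, and to 36.5 to 41.6 CPM in male KO and 79.3 to 86.0 CPM in male WT libraries. Podocyte markers summed to 337 to 379 CPM in female KO and 331 to 351 CPM in female WT libraries, and to 429 to 467 CPM in male KO and 502 to 532 CPM in male WT libraries. Leukocyte markers summed to 40.2 to 46.5 CPM in female KO and 28.0 to 34.7 CPM in female WT libraries, and to 27.8 to 30.2 CPM in male KO and 19.3 to 22.4 CPM in male WT libraries. The part of these shifts in the differences reported above was not tested, and pool and genotype cannot be told apart in this design.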

How the data were processed

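RNA-seq gene counts of 15 libraries in 4 groups (sex by Diet1 genotype) were analysed. Per the labels, the libraries were strand-specific and made from mRNA, after Trizol and RNeasy extraction. Raw gene counts were deposited by the authors. Their processing notes name STAR 2.6.1, featureCounts, mm10, edgeR 3.26.8 and limma 3.40.6. Neither annotation nor strand setting is given in the sources used here. CPM values deposited by the authors served as a check, and equal counts over library totals within 1e-06.

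Counts were fitted in R 4.3.3 with edgeR 4.0.16 (limma 3.58.1): filterByExpr (minimum count 10, minimum total 15), TMM scaling, a mean per group and the quasi-likelihood test, with Benjamini-Hochberg adjustment over 13912 genes and a threshold of 0.05. The standard error is the log2 fold change over the square root of F. The script was tested on simulated data. CPM per kb uses union exons of GENCODE M21 on GRCm38, the build of mm10, which may not be the annotation behind the counts. The 9 genes, the 6 pathway lists and the 9 marker lists were chosen with earlier results of these data known. Named from each list were up to 3 called genes per direction and sex with the largest fold change at 1 CPM or more, any claudin or aquaporin, the 5 nearest patterns to Cldn8 and Scnn1b, and markers at 0 or highest in their list. Named outside this rule, after their values were seen, were Nr3c2, Atp2c1, Slc34a1 and the principal cell markers Wfdc2, Apela and Avpr2. Alternatives were other scalings, DESeq2 1.42.0, no filter or 5 CPM in 3 libraries, separate fits per sex, the replicate number as a block, and each library left out in turn. Depth was 17648416 to 30896637 counts. Floors cover counting error only, and SDs and standard errors cover the technical spread within pools. Malrd1 was not analysed here, and some list genes that enter counts and sums are not reported here by name.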

Additional observations from a re-analysis of the deposited data

Results flagged for a closer look

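Within groups of 4 libraries, 14 of 150 gene and group pairs examined had 1 library set apart by a gap larger than Dixon's test allows, where chance alone marks about 1 in 20. Of the 9 genes, Cldn8 was at 5.28 CPM in male WT replicate 2, against 3.31 to 3.63 CPM in the others, and at 1.10 CPM in female KO replicate 2, against 1.77 to 1.85 CPM. Scnn1g was at 4.74 CPM in female WT replicate 2, against 3.95 to 4.05 CPM. Among list genes in female KO cells, Klhl3 was at 1.45 CPM in replicate 2 (others up to 0.990), Lgr5 at 4.14 CPM in replicate 4 (others from 5.08), Atp2a2 at 359 CPM in replicate 1 (others from 386) and Wnt7b at 365 CPM in replicate 2 (others from 376). In female WT cells, Kcnma1 was at 2.34 CPM in replicate 3, Sgk1 at 85.7 CPM in replicate 4, Cldn15 at 0.862 CPM in replicate 1, Avpr1a at 0.928 CPM in replicate 3, Tfcp2l1 at 104 CPM in replicate 2 and Wnt7b at 413 CPM in replicate 3. In male WT cells, Cldn3 was at 121 CPM in replicate 1.

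The KO effect differed between female and male cells, by edgeR's test of the difference, for 24 of 43 named list genes, beside 15.6% of all genes. The 43 were named for a large called effect in at least 1 sex, so the shares cannot be compared. The female effect exceeded the male effect on the log2 scale by 1.43 for Cldn15, 1.11 for Ret, 1.04 for Dmrt2, 0.92 for Wnt11, 0.91 for Avpr1a, 0.81 for Fxyd5 and 0.69 for Sgk1. Smaller differences of that sign were 0.31 for Etv5, 0.28 for Prkar2a, 0.27 for Etv4 and 0.24 for Atp2a2. The female minus the male effect was -0.88 for Cldn16, -0.79 for Cldn19, -0.65 for Lhx1, -0.52 for Bmp7, -0.48 for Prss8 and -0.46 for Kcnj16. It was -0.29 for Emx2, -0.28 for Wnt7b, -0.26 for Klf5, -0.25 for Cldn12, -0.15 for Cldn3, -0.14 for St14 and -0.10 for Cldn4. Each sex and genotype is 1 pool, so a difference between the sexes cannot be told apart from one between pools.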

How the results depend on the processing

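No called result changed direction under the alternatives tried, while the male Scnn1g value (0.06) and the female Hsd11b2 value (0.00), which are not called, changed sign with a library left out. They ran from -0.14 to 0.27 for Scnn1g and from -0.071 to 0.054 for Hsd11b2. The median log2 fold change of the 7 genes ran from -1.51 to -1.25 in female and from -0.445 to -0.380 in male cells when each library was left out. Scaled by library size alone, 39.9% of the 5729 female calls were higher, against 52.7% of 5469 with TMM, and 46.3% of the calls on the difference between the sexes were higher, against 62.4%, so the majority of calls turned to lower in both, while the median of all genes moved by -0.0383. Leaving out a library gave 4900 to 5183 female and 2051 to 3052 male calls (2808 with all), the lowest male count without male KO replicate 3. On the pathway lists the female calls (61) ran from 55 to 58 and the male calls (37) from 22 to 35, with 22 without male KO replicate 3, a fit with fewer samples. The calls on the difference between the sexes ran from 1833 to 2335 over all genes and from 37 to 49 on the lists.

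A fit with the replicate number as a block called 5909 genes in female cells, 3092 in male cells and 2491 for the difference, with 61, 42 and 50 on the lists, and gave medians of the 7 genes of -1.41 and -0.457. Correlations of deviations were -0.0285 to 0.072 between same-numbered KO and WT libraries of a sex, and up to 0.165 over all 21 same-numbered pairs. Of 15 libraries, 8 correlated best with one of their own number, a hint from the data that the labels do not explain, and the samples were not treated as paired. With 20 to 49 Scnn1b counts in a female KO library and none or 1 of Aqp2, depth limits the low genes most.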
